A study of Danio rerio with 4 samples.

Results

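The insulin-like growth factor binding proteins (IGFBPs) are secreted proteins that hold insulin-like growth factors (IGFs), the ligands of the IGF1 receptor, outside the cell. They carry IGF through the blood and tissue fluid, keep it from its receptor or release it there, and proteases that cut an IGFBP free the bound ligand. Zebrafish keep several IGFBP genes as pairs of paralogs, marked a and b. The genes described here were the rows of the authors' deposited heart comparison whose symbol was igfbp1a, igfbp1b, igfbp2a, igfbp2b, igfbp3, igfbp5a, igfbp5b, igfbp6a or igfbp6b. Of these 9 names, 5 were found among the 14962 genes of the authors' deposited table: igfbp1a, igfbp2a, igfbp3, igfbp5b and igfbp6b. The names igfbp1b, igfbp2b, igfbp5a and igfbp6a were not matched there and are described from the count libraries below.

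Per the labels, adult zebrafish of the Ekkwill strain received vehicle, or alfacalcidol, a vitamin D analog that the body turns into the active hormone. Injections were given daily over 3 days and hearts were collected 24 hours after the last one, per the labels. The comparison asks which heart transcripts differ after exposure to this vitamin D receptor agonist. Each group had 2 count libraries. The labels do not say whether a library came from 1 animal or a pool, nor whether the libraries came from separate animals. The p-values of tests on these libraries thus measure only the spread between them, which may be technical. The libraries behind the authors' deposited table are not named there, so their number and the spread behind its p-values are not known here. Library totals were 31427486 to 39572163 reads.

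The 2 kinds of deposited data did not describe the same tissue, and they are reported apart. In the authors' deposited table the 8 cardiomyocyte markers summed to 92062 CPM (reads of the gene for each 1000000 reads counted), and the 8 skeletal muscle markers found there summed to 1516 CPM, most of it from ckma at 1492 CPM. In the count libraries the cardiomyocyte markers summed to between 2529 and 2684 CPM, most of it from ttn.2 at a mean of 2392 CPM, while the skeletal muscle markers summed to between 39395 and 45065 CPM. The 2 cartilage markers found in both, col2a1a and acana, summed to 13.5 CPM in the authors' deposited table and to between 5806 and 6094 CPM in the count libraries. The heart label thus did not match the RNA of the count libraries, which are called by their labels below. Globin genes named as adult forms were nearly without reads in each count library: 2 to 7 for hbaa1, 0 to 4 for hbba2 and 0 or 1 for hbaa2. The other erythrocyte markers, alas2 and slc4a1a, averaged 24.6 and 41.8 CPM over the same libraries. Whether these libraries came from adult fish, as labelled, was not tested. The authors' deposited table names neither its libraries nor the numerator of its fold change. Its gene cyp24a1, which encodes the enzyme that breaks down active vitamin D and is a target of its receptor, is listed in the authors' deposited table with a positive log2 fold change, 1.53. It is at 3.69 CPM there, with an edgeR adjusted p of 8.19e-05. On the sign of this gene alone, positive values are read as higher with alfacalcidol.

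In the authors' deposited table igfbp6b was 7.28-fold lower and igfbp5b 1.61-fold lower with alfacalcidol, and the other 3 IGFBP genes did not pass an adjusted p of 0.05. That is 2 of 5 called lower and 0 called higher, where 9.22% of all genes in the authors' deposited table were called lower and 20.1% were called in either direction. With 5 genes the share rests on 2 calls. The median log2 fold change of the 5 was -0.40 in the authors' deposited table, against 0.01 over all genes. The authors' deposited table gives no standard error and no value per library, so no spread can be set beside these changes.

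**Figure D1:**
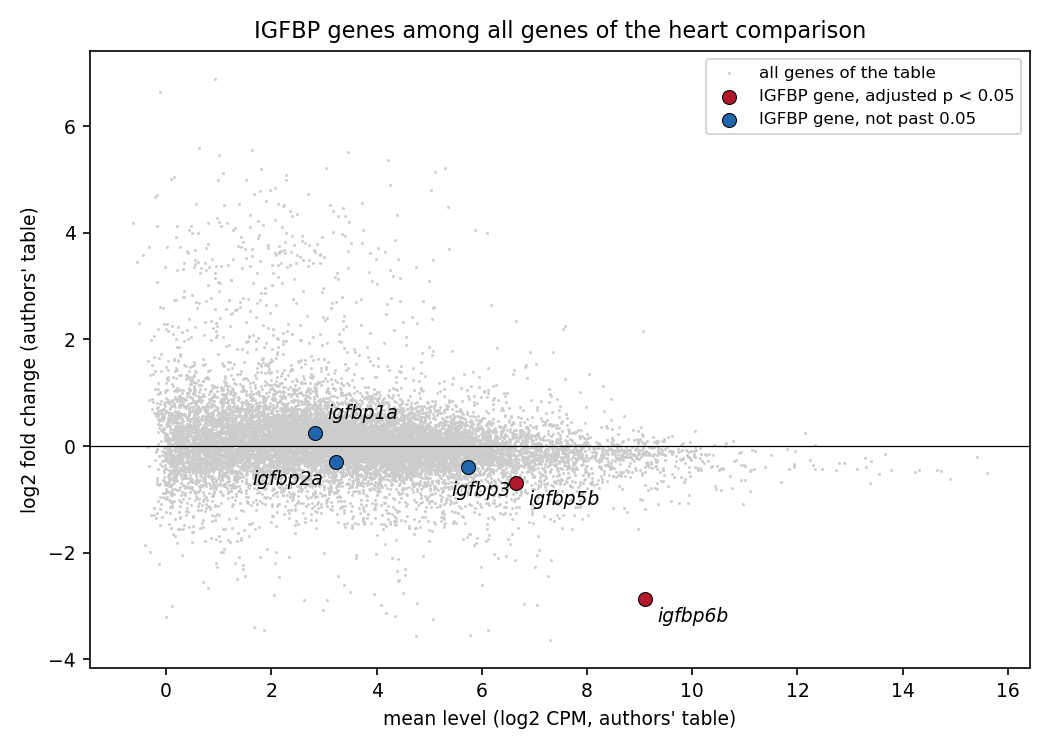
Log2 fold change (vertical axis) against mean level in log2 CPM (horizontal axis) for all 14962 genes of the authors' deposited table (grey) and its 5 IGFBP genes (red past an adjusted p of 0.05, blue not). The gene igfbp6b, at -2.86 on the log2 scale, lies apart from the genes of like level, while the other 4 lie inside the grey cloud.

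IGFBP6 is the family member that in mammals prefers IGF2 to IGF1. The zebrafish gene igfbp6b (ENSDARG00000090833; GRCz10 chromosome 23, 36479455 to 36486365) was at a mean of 548 CPM by the authors' deposited table, rank 207 of 14962 by CPM, a ranking by reads that is not corrected for transcript length. The authors' deposited table gives its log2 fold change as -2.86, with an edgeR adjusted p of 1.38e-13. It was the most negative value among the 207 genes of the authors' deposited table at that level or above. The next lowest of those genes was mylk3, which encodes the cardiac myosin light chain kinase, at -1.17 in the authors' deposited table. Abundant transcripts as a group leaned the same way. In the authors' deposited table the 207 genes, igfbp6b among them, had a median log2 fold change of -0.27. Of the 207 genes 42 were called lower and 0 higher, where 9.22% of all genes were called lower and 10.9% higher. Just under that level, at 538 CPM, the gene si:ch73-46j18.5, named here after its value was seen, was called higher at 2.15 in the authors' deposited table. Over the whole authors' deposited table, igfbp6b ranked 19 from the most negative value, and none of the 18 genes below it was above 157 CPM.

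IGFBP5 binds extracellular matrix as well as IGF and can either restrain or favour IGF signalling. The gene igfbp5b (ENSDARG00000025348; GRCz10 chromosome 9, 47020157 to 47041700) was at 99.96 CPM by the authors' deposited table, where its log2 fold change was -0.68 (edgeR adjusted p 0.00543). Its change was thus far smaller than that of igfbp6b: 1064 of 14962 genes in the authors' deposited table were at or below it, against 19 for igfbp6b. The difference between the pair was not tested, since the authors' deposited table holds no standard errors. Under a 2-fold minimum igfbp5b is no longer counted and igfbp6b remains.

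IGFBP3 carries most circulating IGF in mammals, in a complex with the acid-labile subunit, and is known as a vitamin D responsive gene in human cells. The gene igfbp3 (ENSDARG00000099144; GRCz10 chromosome 20, 6766300 to 6814290) is listed in the authors' deposited table at 53.5 CPM and a log2 fold change of -0.40. Its edgeR adjusted p in the authors' deposited table was 0.115, and its unadjusted p was 0.0307. It was therefore neither called lower nor higher.

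IGFBP1 is a liver-secreted inhibitor of IGF action that rises with fasting and hypoxia. The gene igfbp1a (ENSDARG00000099351; GRCz10 chromosome 20, 6818827 to 6822741) lies 4.54 kb from igfbp3. The authors' deposited table has it at 7.13 CPM and a log2 fold change of 0.24 (edgeR adjusted p 0.519). The 2 adjacent genes thus had values of opposite sign, neither past the threshold. IGFBP2, another carrier of circulating IGF, was represented by igfbp2a (ENSDARG00000052470; GRCz10 chromosome 6, 18861319 to 18891956). The authors' deposited table has this gene at 9.33 CPM and a log2 fold change of -0.31 (edgeR adjusted p 0.327). None of these 3 genes was past 1.5-fold in either direction in the authors' deposited table.

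Markers of other cell types changed in the same comparison, where 9.22% of all genes were called lower. By the authors' deposited table, all 4 neutrophil markers were called lower, from -2.43 for lyz to -1.31 for mpx, at a summed level of 11.04 CPM. Of 6 endothelial markers 3 were called lower in the authors' deposited table, with log2 fold changes between -1.05 for flt1 and -0.01 for tie1 and a summed level of 1004 CPM. Of 5 macrophage markers 3 were called lower in the authors' deposited table (summed level 62.5 CPM), and 0 of 7 epicardial and fibroblast markers were called (summed level 340 CPM). None of these markers was called higher in the authors' deposited table, and the igfbp6b change was larger than that of any marker on these lists. Their part in the IGFBP values was not tested. In RNA from whole tissue, fewer cells of a type and less RNA per cell cannot be told apart.

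The genes nearest to igfbp5b in fold change, among 781 genes of the authors' deposited table within 0.5 of its log2 CPM, were abcc9, which encodes a subunit of potassium channels, at -0.68 and kdr, an endothelial VEGF receptor gene, at -0.69. Of the 781 genes 91 were more negative than igfbp5b and 150 were called lower, where 9.22% of all genes were. Among so many genes near values are to be found, so these matches say little about igfbp5b. For igfbp6b no near match was found. Of 184 genes within 0.5 of its log2 CPM in the authors' deposited table, the 2 closest were pdk2a, encoding a pyruvate dehydrogenase kinase, at -1.55 and anxa2a, encoding an annexin, at -1.23. This likeness is over 1 contrast and 1 level, with no values per library.

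The IGFBPs act between IGF ligands and receptors, and the rest of that pathway was read from a list of 67 symbols by role. Of these, 47 were found in the authors' deposited table, and 7 were called lower and 3 higher, which is 14.9% lower and 6.38% higher, against 9.22% and 10.9% of all genes there. Their median log2 fold change was -0.08 in the authors' deposited table. The only ligand gene found in the authors' deposited table was igf2b, with a log2 fold change of 0.46 and an edgeR adjusted p of 0.124. None of the 5 receptor genes was called: igf1ra, igf1rb, igf2r, insra and insrb lay between -0.16 and 0.40 in the authors' deposited table.

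Of 5 listed genes for proteases that cut IGFBPs, 2 were found in the authors' deposited table. Of these 1 was called lower, where 9.22% of all genes were. It was htra1b, listed as 4.18-fold lower at a mean of 87.9 CPM (log2 fold change -2.06, edgeR adjusted p 5.31e-10). HTRA1 is a secreted serine protease that in mammals cleaves IGFBP5 among other substrates. The gene pappaa, whose product cleaves Igfbp5a in zebrafish, was listed at -0.40 by the authors' deposited table and was not called (edgeR adjusted p 0.163). Its inhibitor gene stc2a, encoding a stanniocalcin, was the only 1 found of 4 listed inhibitor genes. It was not called by the authors' deposited table either, at 0.12.

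Growth hormone drives IGF production, and 2 of its 5 genes in the authors' deposited table were called lower, where 9.22% of all genes were. By the authors' deposited table the receptor gene ghrb had a log2 fold change of -1.04 and a level of 214 CPM, and the feedback inhibitor gene socs2 -1.69 and 1.998 CPM (edgeR adjusted p 8.63e-07 and 5.32e-07). Its paralog ghra was not called by the authors' deposited table, at 0.05 and 1.21 CPM.

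Downstream of the receptors, 2 of 8 adaptor genes were called lower in the authors' deposited table, against 9.22% of all genes: irs2a at -0.68 and grb10a at -0.58 (edgeR adjusted p 0.0273 and 0.0196). Insulin receptor substrates pass on the receptor signal and GRB10 restrains it. Of 15 kinase cascade genes only akt1 was called in the authors' deposited table, higher at 1.21 from a mean of 5.22 CPM (edgeR adjusted p 3.67e-06). That is 6.67% of them, where 10.9% of all genes were called higher. FOXO factors, which AKT keeps out of the nucleus and which switch on IGFBP1 in mammals, had 2 of 5 genes called lower in the authors' deposited table, against the same 9.22%. These were foxo3b at -1.08 and foxo1a at -0.84 (edgeR adjusted p 0.000870 and 0.0101 in the authors' deposited table).

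Genes for IGFBP-related proteins were listed as well, and 5 of them were found in the authors' deposited table. Of these 2 were called, both higher, where 10.9% of all genes were called higher. By the authors' deposited table cyr61 was at 1.86 and ctgfa at 1.05 on the log2 scale (edgeR adjusted p 2.01e-20 and 2.12e-06), which encode matricellular proteins. The gene igfbp7, which is not among the 9 names, was at -0.08 in the authors' deposited table and not called.

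**Figure D2:**
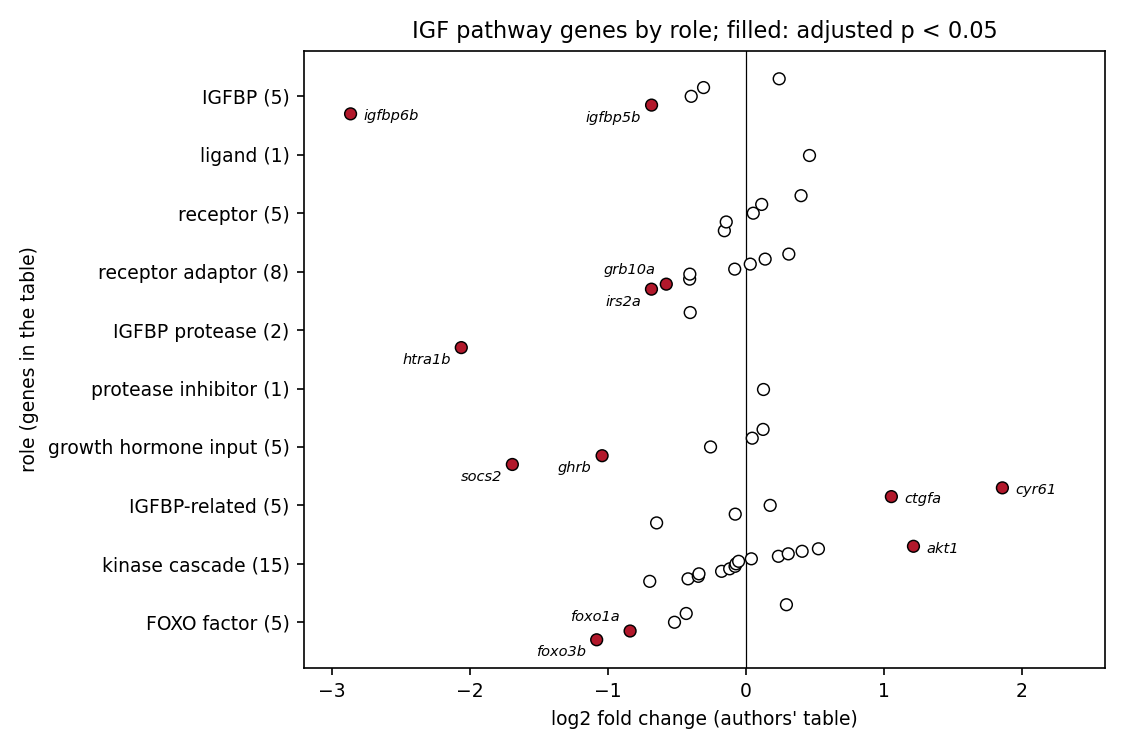
Log2 fold change in the authors' deposited table (horizontal axis) for the 5 IGFBP genes and 47 genes of the IGF pathway, in rows by role with the number of genes in brackets; each point is 1 gene, filled and named past an adjusted p of 0.05. The called IGFBP, protease, growth hormone input, adaptor and FOXO genes lie left of 0, and the called IGFBP-related and kinase genes lie right of 0.

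In the count libraries all 9 IGFBP genes had reads, and 8 of them passed the low-count filter. Gene IDs of igfbp1b (ENSDARG00000038666) and igfbp6a (ENSDARG00000070941) came from a table of gene names. Those of igfbp2b (ENSDARG00000031422) and igfbp5a (ENSDARG00000039264) were taken by exclusion, as the other gene named IGFBP2 or IGFBP5 there. CPM levels are not corrected for transcript length here either, and each gene is compared between libraries. Reads shared between paralogs are an added uncertainty, since no source used here says how they were handled.

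The gene igfbp6b was at 8.05 and 9.09 CPM in vehicle replicates 1 and 2 and at 8.25 and 7.53 CPM in alfacalcidol replicates 1 and 2. The groups overlapped, and the log2 fold change was -0.12 ± 0.14 (SE), with a 95% interval of -0.45 to 0.20. The bound nearest to the -2.86 of the authors' deposited table was thus -0.45. In the authors' deposited table the level of igfbp6b was 66.6 times its mean of 8.23 CPM in the count libraries. The 2 sources were normalised separately and did not describe the same tissue by their markers. Neither the level nor the fold change of 1 source is thus a repeat of the other. Its paralog igfbp6a had 0 reads in both vehicle libraries and 3 and 2 reads in the alfacalcidol libraries. All 4 values are at or under the 3 reads that a count of 0 allows, equal to between 0.0758 and 0.0955 CPM, so no fold is given.

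The gene igfbp5b was at 107 and 115 CPM under the vehicle label and 108 and 114 CPM under the alfacalcidol label. The alfacalcidol values lay between the vehicle values, with a log2 fold change of 0.00 ± 0.08 (SE) and a 95% interval of -0.18 to 0.19, which does not reach the -0.68 of the authors' deposited table. Its mean of 111 CPM was close to the 99.96 CPM that the authors' deposited table gives. Its paralog igfbp5a was at 7.25 and 6.01 CPM under vehicle and 6.54 and 7.05 CPM under alfacalcidol, again within the vehicle range, with a 95% interval of -0.33 to 0.40.

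The gene igfbp3 was at 26.8 and 26.5 CPM under vehicle and 27.9 and 25.2 CPM under alfacalcidol. The 2 vehicle values lay between the alfacalcidol values, and the 95% interval of the log2 fold change was -0.22 to 0.22. The 53.5 CPM of the authors' deposited table was 2.01 times the mean of 26.6 CPM over the libraries.

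The gene igfbp1a was at 10.9 and 14.2 CPM under vehicle and 13.5 and 11.2 CPM under alfacalcidol. Vehicle replicate 1 was close to alfacalcidol replicate 2, and vehicle replicate 2 to alfacalcidol replicate 1. The gene igfbp2a showed the same pairs, at 65.3 and 54.9 CPM under vehicle and 54.6 and 61.5 CPM under alfacalcidol. So did igfbp2b, at 11.3 and 8.95 CPM under vehicle and 9.16 and 10.6 CPM under alfacalcidol. The same pairs of libraries were the closest over all genes compared, with mean chi-square per gene of 7.72 and 2.29. The pattern is thus not particular to these IGFBP genes. The gene igfbp1b was lowest in vehicle replicate 1, at 1.27 CPM, and stood at 2.07 CPM in the other vehicle library and 1.94 and 1.69 CPM under alfacalcidol. The 95% intervals of the log2 fold change were -0.41 to 0.37 for igfbp1a, -0.58 to 0.80 for igfbp1b, -0.31 to 0.21 for igfbp2a and -0.40 to 0.33 for igfbp2b. The values of igfbp1a and igfbp2a in the authors' deposited table, 0.24 and -0.31, lie inside these intervals.

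**Figure D3:**
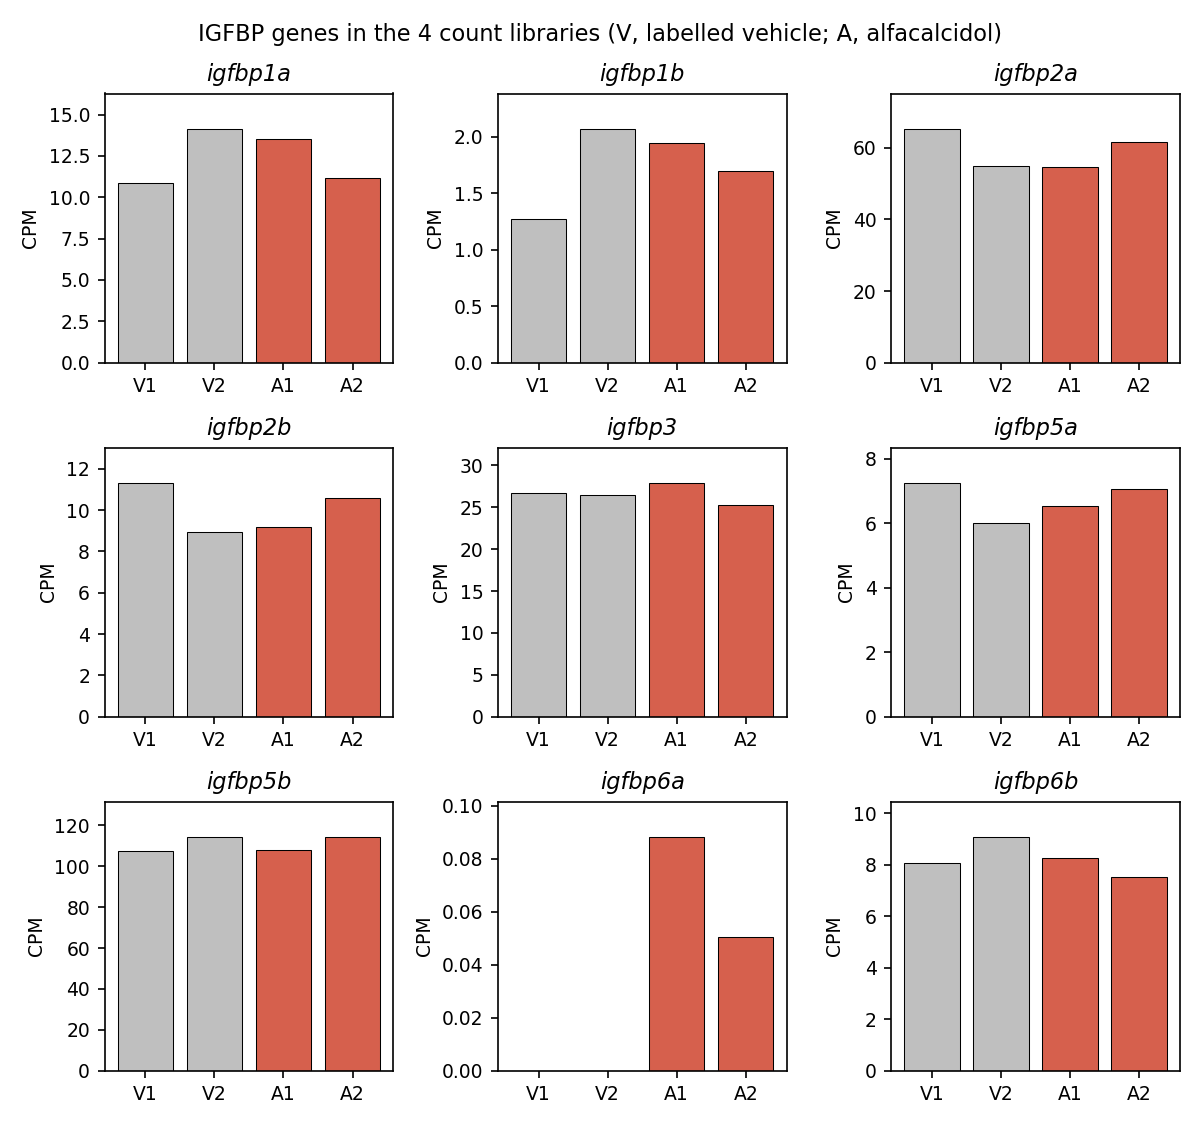
CPM (vertical axes, each from 0) of the 9 IGFBP genes in the 4 count libraries; each bar is 1 library, V1 and V2 labelled vehicle (grey) and A1 and A2 labelled alfacalcidol (red). In the 8 genes that were tested the bars of the 2 labels overlap, and igfbp6a stays below 0.1 CPM.

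Of the 8 IGFBP genes tested in the count libraries, 0 were called by edgeR's quasi-likelihood test with Benjamini-Hochberg adjustment, where 0% of 22428 genes were called. None of the 8 had an unadjusted p under 0.05 by edgeR or by DESeq2, while 128 of all 22428 genes did by edgeR and 19 by DESeq2. That is a far smaller share than the 0.05 of genes that would fall there if nothing differed. The lack of such p-values is thus shared with nearly all genes and is not particular to the IGFBP or IGF pathway genes. In all 8 the values of the 2 labels overlapped. Of 55 IGF pathway genes tested there, 0 were called by edgeR and 0 had an unadjusted p under 0.05, with log2 fold changes between -0.46 and 0.11. The gene htra1b, for example, was at 13.8 and 16.3 CPM under vehicle and 16.6 and 12.8 CPM under alfacalcidol.

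**Figure D4:**
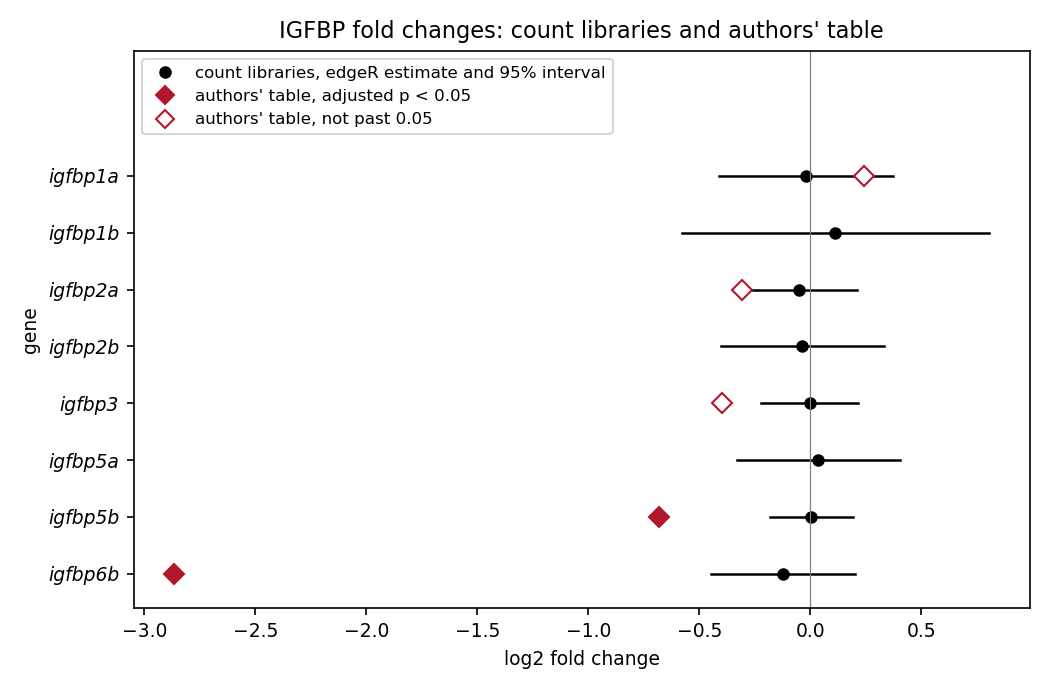
Log2 fold change (horizontal axis) of 8 IGFBP genes in the count libraries (black points, with 95% intervals from edgeR's quasi-likelihood fit of 2 against 2 libraries) and of 5 of them in the authors' deposited table (red diamonds, filled past an adjusted p of 0.05). All 8 intervals include 0, and the values of the authors' deposited table for igfbp3, igfbp5b and igfbp6b lie outside the intervals. The 2 sources did not describe the same tissue by their markers.

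The IGFBP genes also differed in level between the 2 sources, in both directions. Relative to the authors' deposited table, the mean over the count libraries was 6.34 times as high for igfbp2a and 1.74 times as high for igfbp1a. It was lower for igfbp3 and igfbp6b, as given above. Ligand genes not matched in the authors' deposited table had reads in the count libraries, with igf1 at 2.21 CPM and igf2a at 12.1 CPM on average over 4 libraries.

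**Figure D5:**
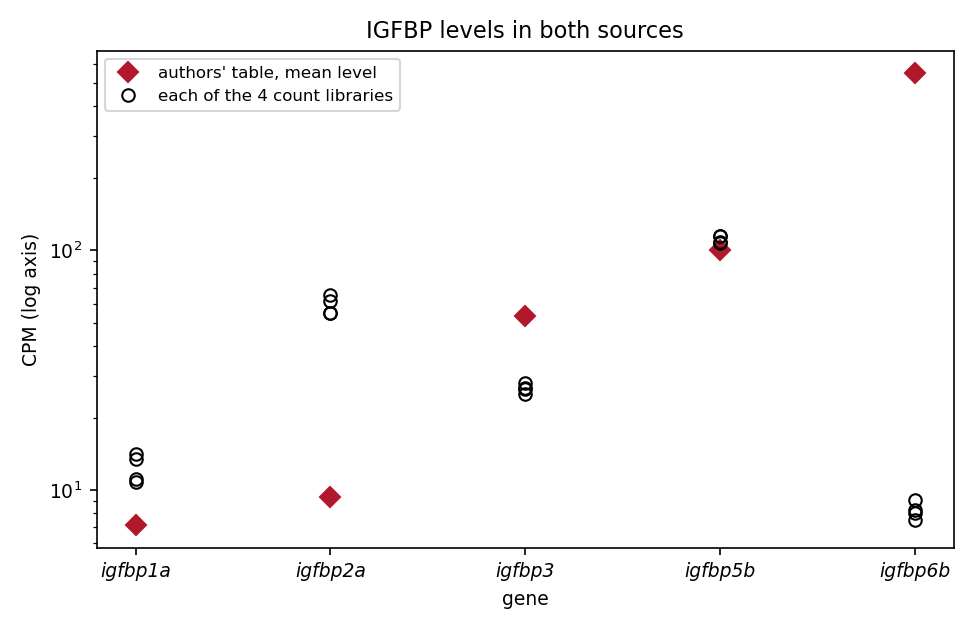
CPM on a log axis (vertical) of the 5 IGFBP genes (horizontal axis) in the authors' deposited table (red diamonds, 1 mean level each) and in each of the 4 count libraries (open circles). The authors' deposited table has igfbp6b at 548 CPM, and it lies between 7.53 and 9.09 CPM in the libraries, while igfbp5b lies near the same level in both, at 99.96 CPM in the table.

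By position, the IGFBP genes form 3 adjacent pairs and 3 single genes in RefSeq's gene order of the GRCz12tu assembly, another build than that of the files. The pairs are igfbp3 with igfbp1a, igfbp2a with igfbp5a and igfbp2b with igfbp5b, and igfbp1b, igfbp6a and igfbp6b have no IGFBP neighbour. RefSeq lists the a and b names of igfbp2 and of igfbp5 as each other's synonyms, so the IGFBP genes are given above by Ensembl ID as well as by name.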

How the data were processed

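Each of 4 libraries has a deposited table of raw read counts for 31462 Ensembl genes. The submitters' processing notes name CASAVA, TopHat2, featureCounts and the GRCz10 build, with versions, strandedness and shared-read handling not given in the sources used here. Fold changes (log2) and mean levels (log2 CPM) were deposited by the authors as edgeR output, per the submitters' processing notes, and levels in CPM are powers of 2 of the latter. Deposited p-values of the authors' comparison are both raw and adjusted, and the second kind was recomputed and equals Benjamini-Hochberg values.

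The test on counts was the two-sided quasi-likelihood F-test of edgeR 4.0.16 (R 4.3.3) after filterByExpr and TMM scaling, on group alone, with a threshold of 0.05 adjusted over 22428 genes. Intervals come from the quasi-likelihood standard error. The fit was tested on simulated data. Alternatives were RLE and upper-quartile scaling, no filter, DESeq2 1.42.0, a replicate block, each library left out and other thresholds. No pair of libraries was identical: mean chi-square per gene was 2.29 to 24.1, and lowest for vehicle 2 with alfacalcidol 1. Next lowest was vehicle 1 with alfacalcidol 2, at 7.72. The pairs of the same label were at 20 for vehicle and 22.7 for alfacalcidol. The other pairs across labels were at 19.9 for replicates 1 and 24.1 for replicates 2. The fit on group alone counts the difference within a label as spread, and its intervals and calls rest on that.

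Of the IGF list, every gene past the threshold is named, other genes of it were named after their values were seen, and likeness was taken by fold change among genes of like level. Members, lists and tests were chosen with earlier results of these data known. Cell types were read from 9 marker lists. The 4 liver markers found in both sources summed to 31.4 CPM in the authors' deposited table and to between 6439 and 7452 CPM in the count libraries. By the authors' deposited table, 2 of 5 erythrocyte, 2 of 4 liver, 1 of 8 cardiomyocyte, 1 of 8 skeletal muscle and 0 of 2 cartilage markers were called lower. None of these was called higher, where 9.22% of all genes were called lower and 10.9% higher. With so few markers in each list, these counts say little about any cell type. The called liver marker gc was at 0.93 CPM, near the lowest level there, 0.65 CPM.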

Additional observations from a re-analysis of the deposited data

How the results depend on the processing

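In the authors' deposited table a pair of IGFBP genes were called lower at adjusted p thresholds of 0.01, 0.05 and 0.1, and 1 with a 2-fold minimum added, which leaves out igfbp5b by its size. Of the IGF pathway list 7 genes were called lower, but 4 at 0.01 and 4 with a 2-fold minimum, and 9 at 0.1. The higher calls were 3, or 4 at 0.1. At 0.05, 9.22% of all genes in the authors' deposited table were called lower and 10.9% higher. Shares of all genes under the other thresholds were not computed, so the counts there have no background to be set against. In the count libraries RLE or upper-quartile scaling, no low-count filter, DESeq2 and the replicate block called 0 genes and kept the direction of all 8 IGFBP genes. Libraries of the same replicate number did not deviate alike from their group means: the deviations correlated at -0.471. With 2 libraries in a group the deviations are exact opposites. The 0.471 across numbers is therefore the same value with its sign turned, not a second result. With the crossed pairing as a replicate block, chosen after seeing the data, edgeR called 7 of 22428 genes. None was an IGFBP gene, which at so small a share of all genes says nothing particular about the 8 tested. With the replicate number as a block, the log2 fold changes were -0.12 for igfbp6b and 0.00 for igfbp5b. Leaving out each library in turn called 0 genes, and log2 fold changes ran from -0.21 to -0.027 for igfbp6b, -0.044 to 0.053 for igfbp5b, -0.091 to 0.18 for igfbp5a and -0.084 to 0.073 for igfbp3. They ran from -0.20 to 0.19 for igfbp1a, -0.19 to 0.52 for igfbp1b, -0.17 to 0.078 for igfbp2a and -0.19 to 0.14 for igfbp2b. All but igfbp6b thus changed sign without 1 library, with no value past the threshold; the cause was not tested. Since the table holds no values per library, no library could be left out of it.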

Other observations

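The genes beside igfbp6b did not share its change in the authors' deposited table. On chromosome 23 (GRCz10), spryd3 lies 9.60 kb before igfbp6b and had a log2 fold change of -0.25 at 58.7 CPM in the authors' deposited table (edgeR adjusted p 0.376). On the other side pip4k2ca, encoding a phosphoinositide kinase, lies 7.70 kb beyond it and had one of -0.20 at 54.9 CPM in the authors' deposited table (edgeR adjusted p 0.502). Beside igfbp2a, tns1a, which encodes the focal adhesion protein tensin 1, lies 46.9 kb before it and was called lower at -1.15 in the authors' deposited table (edgeR adjusted p 0.000158). The gene stk11ip, 2.22 kb beyond igfbp2a, was at 0.45 in the authors' deposited table and not called. None of the neighbours of the other members was called in the authors' deposited table. On the log2 scale si:ch73-193i22.1, 119 kb before igfbp5b, was at -0.45 there and tns1b, 697 kb beyond it, at -0.35. By the authors' deposited table tns3.2, 89.6 kb before igfbp3, was at -0.09 and sirt5, 240 kb beyond igfbp1a, at -0.07. In all, 1 of 8 neighbours outside the family was called in the authors' deposited table, where 20.1% of all genes were called. These neighbours were chosen by position alone, as the nearest gene of the authors' deposited table on each side. They are not always adjacent in the genome: igfbp5a, next to igfbp2a in RefSeq's gene order, was not matched in the authors' deposited table.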
